A study of Homo sapiens with 2 samples.

Results

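The DNA methylation and Polycomb repressive complex 2 (PRC2) regulators were examined in Ca9-22 cells, a line from oral squamous cell carcinoma (OSCC), with and without ectopic expression of the long noncoding RNA DLEU1. The set held 10 genes, namely DNMT1, UHRF1, HELLS, DNMT3A, DNMT3B, TET1, TET2, TET3, EZH1 and EZH2. Its members were the non-control probes whose gene name on the array was one of these symbols. This gave 21 probes out of 58201, and 10 gene names out of 43317. Cells were infected with a lentivirus that carried a full-length DLEU1 cDNA, cloned from KON cells into pLenti6/V5-DEST, or with the empty vector as the control vector. Both cultures were grown in RPMI medium with fetal bovine serum and selected with blasticidin at 6 mg/ml for 2 weeks, and Cy3-labelled total RNA of each was hybridised to 1 single-colour Agilent expression array, the pair lying on the same slide and in the same scan. The promoter that drives DLEU1 and whether the selected cells were a pool or a clone are not given in the sources used here. With 1 array in each of the 2 groups, no test was possible, and no value below has a replicate check. In RNA from a whole culture, fewer cells of a kind and less RNA per cell cannot be told apart.

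Methylation of cytosine in CpG pairs is copied to the new DNA strand after replication by DNMT1, which UHRF1 brings to sites methylated on the old strand alone and for which the remodeller HELLS opens packed chromatin. DNMT3A and DNMT3B set methyl groups on unmethylated DNA, and the TET dioxygenases oxidise the methyl group and so begin its removal. PRC2 marks silent genes by methylating histone H3 at H3K27, with EZH2 as its enzyme in dividing cells and EZH1 as the weaker enzyme found more in resting cells.

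All levels below are log2 signals relative to the 75th percentile of the same array, so that 0 is that percentile. A difference is the level with the DLEU1 vector less the level with the control vector, and is below 0 where the DLEU1 vector was lower. The error after a difference combines the error that the extraction software assigned to the spot on each array, and it covers the measurement but not the variation between cultures. Over 282 probes printed in several spots, the SD of the log2 difference between the arrays, taken over the spots of a probe, was 0.0800. A probe counted as detected where the software marked it as well above background, and a gene was read from the brightest of its probes that both arrays detected. With 1 array per group, a call means a difference of 2-fold or more. DLEU1 itself, the vector's cargo, went from 3.17 to 5.91 at its brightest probe, a difference of 2.74 ± 0.20, and differed by 0.85 and 0.54 at its other 2 probes. All 5 squamous epithelial markers checked (KRT5, KRT14, TP63, CDH1 and EPCAM) were detected on both arrays, with a summed intensity of 57514 for the control vector and 180232 for the DLEU1 vector. Of 6 fibroblast markers 2 were detected for the control vector and 3 for the DLEU1 vector, and their summed intensity went from 375 to 5292, with COL1A1 different by 3.99, while COL1A2, COL3A1 and DCN were detected on neither array. Of 4 leukocyte markers 3 were detected on each array, with sums of 302 and 247, and of 3 endothelial markers 2 were detected on each, with sums of 108 and 648. Of these 2, VWF differed by 3.70 at its brightest probe and by -0.07 at another, and CDH5 differed by -0.59. The part of these markers in the results was not tested.

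Of the 10 regulators, 9 were detected on both arrays and 1, TET3, on neither. At these probes DNMT1, UHRF1, HELLS, DNMT3B and EZH2 had differences below 0, and DNMT3A, TET1, TET2 and EZH1 differences above 0. A total of 4 of the 9 (UHRF1, HELLS, DNMT1 and EZH2) were at least 2-fold lower, beside 9.78% of the 20246 genes detected on both arrays. None of the 9 (0) was at least 2-fold higher, beside 9.18% of all genes. At 1.5-fold 5 were lower and 2 higher, beside 22.0% and 18.4% of all genes, and at 3-fold 3 were lower and 0 higher, beside 3.31% and 3.82%. The median difference over the 9 was -0.91, the value of DNMT3B, beside -0.07 over all genes. It depended on which genes were counted, and was -0.31 without the dim strip described below, which drops DNMT1 alone, and -0.42 with no filter on dim probes. Of all genes 54.2% had a difference below 0. At the level of probes, 16 of 21 were detected on both arrays and 5 on neither. Of these 16 probes, 8 had a difference below 0 and 8 above it, with 7 at least 2-fold lower (9.78% of all detected probes) and 0 at least 2-fold higher (8.98%).

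**Figure D1:**
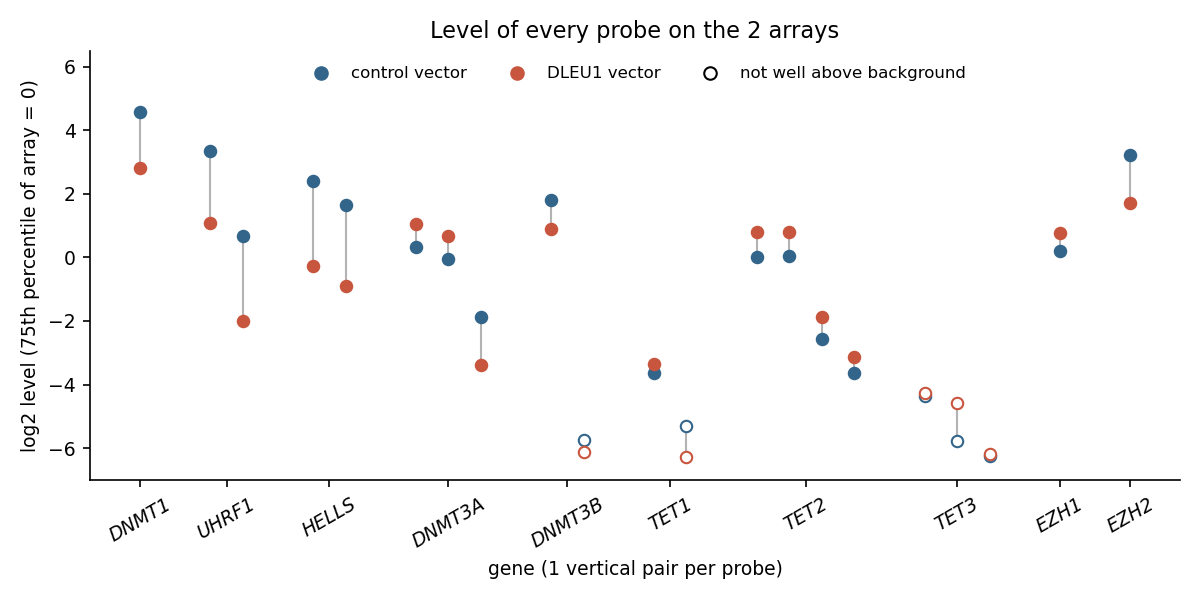
Log2 level of each of the 21 probes (y axis, 75th percentile of the array at 0) on the control vector array (blue) and the DLEU1 vector array (red), with 1 vertical pair per probe and the genes along the x axis. Open circles are probes not well above background. The DLEU1 vector point lies below the control vector point for DNMT1, UHRF1, HELLS and EZH2, and above it for TET2 and EZH1.

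The machinery that maintains methylation held the largest differences of the set. HELLS, the SNF2-family remodeller, was read by a pair of probes. They are shown whole because both fell by more than 5-fold at different places of the gene (hg19, plus strand, 5′ to 3′).
A_23_P12816, chr10:96354481-96354540: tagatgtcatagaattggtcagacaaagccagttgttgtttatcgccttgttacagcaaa
A_33_P3258117, chr10:96334433-96334492: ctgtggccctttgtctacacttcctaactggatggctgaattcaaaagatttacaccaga
The probe A_23_P12816 went from an intensity of 1279 on the control array to 195.6 on the DLEU1 array, which are log2 levels of 2.40 and -0.27. The difference was -2.67 ± 0.21, or 6.37-fold lower. Only 0.805% of the genes detected on both arrays had a lower difference. A_33_P3258117 went from an intensity of 759 to 127, a difference of -2.54 ± 0.21. The HELLS probes thus differed from each other by less than their errors.

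UHRF1, the reader of hemimethylated CpG that recruits DNMT1, was also read by a pair of probes. A_23_P208880 (chr19:4962065-4962124, hg19, plus strand) went from an intensity of 2488 to 502, or from a log2 level of 3.36 to 1.09. This is a difference of -2.27 ± 0.20 (4.83-fold lower), and 1.39% of the genes had a lower one. A_33_P3379454 (chr19:4960895-4960954, plus strand) went from 384 to 59.6, a difference of -2.65 ± 0.22. Both probes were lower by more than 4-fold, and the SD between them was 0.27.

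DNMT1, the maintenance methyltransferase, had a single probe, A_33_P3329187 (chr19:10244023-10244082, hg19, minus strand), of which the first 30 of 60 bases read agactttatgtagtttttatatgttgtaat. It went from an intensity of 5738 to 1669, and its log2 levels were 4.57 and 2.82. The difference was -1.74 ± 0.20 (3.35-fold lower), and 2.68% of the genes had a lower one. This probe was the only 1 of the 21 in a strip with an excess of lower probes, in rows 1 to 120 and columns 33 to 48. It is called the dim strip here. It was read from the difference between the arrays alone and was not assigned to 1 of them. Of the 896 probes lit in the strip on the control vector array, 27.8% were at least 2-fold lower, against 12.6% outside. The DNMT1 probe lies in column 47, and the excess of lower probes was greatest in columns 37 to 40, at 47.8%. Among the 100 lit spots nearest to the DNMT1 probe the median difference was -0.34 and 24% were at least 2-fold lower, while around the other probes of the set this share ran from 7% to 20%. With the local median taken off, the DNMT1 difference was -1.40. Without the strip DNMT1 has no value, and 3 of the 8 genes left were at least 2-fold lower, beside 9.47% of all genes.

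**Figure D2:**
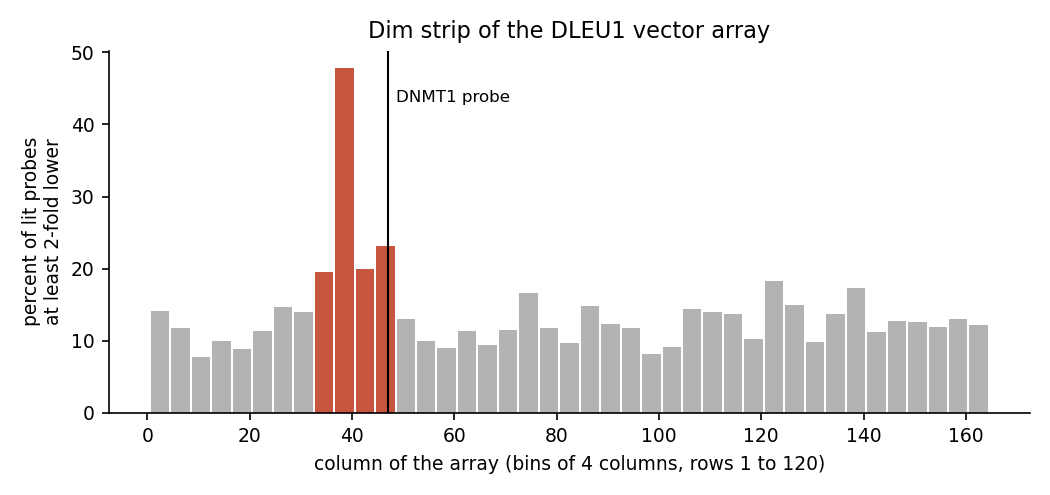
Percent of probes lit on the control vector array that were at least 2-fold lower on the DLEU1 vector array (y axis), in rows 1 to 120, by column of the array (x axis, bins of 4 columns). Red bars mark columns 33 to 48, and the black line marks the DNMT1 probe in column 47, to the right of the highest bar at 47.8%. The title names the DLEU1 vector array, but the strip was not assigned to 1 array.

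Of the enzymes that place new methyl groups, neither was at least 2-fold different at its brightest probe, although 1 dimmer DNMT3A probe was. DNMT3A was read by 3 probes. A_33_P3272330 (chr2:25457095-25457154, hg19, minus strand) went from an intensity of 302 to 492, or from a log2 level of 0.32 to 1.06, a difference of 0.74 ± 0.20 (1.67-fold higher). A_23_P154500 (chr2:25456415-25456474, minus strand), for the same transcript NM_175629, went from 236 to 374, a difference of 0.70 ± 0.21. The probe A_23_P420373 (chr2:25504394-25504453, minus strand) is annotated to another DNMT3A transcript, NM_175630, and fell from an intensity of 65.5 to 22.7, a difference of -1.49 ± 0.29. The first 30 bases of the brightest DNMT3A probe and of the discordant one are shown because the direction for this gene depends on which is read.
A_33_P3272330, transcript NM_175629: tgtgtaagggacatgggggcaaactgaggt
A_23_P420373, transcript NM_175630: caaaaagtcttccttccaagcgtgtatgat
Averaged over its 3 probes DNMT3A differed by -0.02, with an SD between probes of 1.28, so that a single direction for the gene cannot be given. The pooled SD between probes of a gene was 0.47 over 4674 genes.

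The difference of the first probe exceeded that of the DNMT3B probe by 1.66 ± 0.29. DNMT3B, the other de novo enzyme, went from an intensity of 842 to 435 at A_23_P28953 (chr20:31397064-31397123, plus strand), and from a log2 level of 1.80 to 0.88. The difference of -0.91 ± 0.20 (1.89-fold lower) was just short of the 2-fold limit, and 11.5% of the genes had a lower one. It passed 2-fold with median scaling (-1.03) and with spike-in scaling (-1.38). Its other probe, A_33_P3359508, was not well above background on either array.

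Of the TET genes, TET2 had the most probes, and its difference was above 0 at each of the 4. Its brightest probe, A_33_P3238685 (chr4:106193920-106193979, hg19, plus strand), has the sequence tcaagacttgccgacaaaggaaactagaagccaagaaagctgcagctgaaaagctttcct and went from an intensity of 248 to 406. The log2 levels were 0.03 and 0.78, a difference of 0.75 ± 0.21 (1.68-fold higher), and 13.8% of the genes had a higher one. Over the 4 probes the difference ran from 0.48 to 0.78 with an SD of 0.14, and the lowest was that of the dimmest probe (0.48 ± 0.38). TET1 was close to background at A_23_P322756 (chr10:70453516-70453575), with intensities of 19.3 and 23.0, and its difference of 0.29 ± 0.36 was smaller than its error. For TET3, none of 3 probes was well above background on either array. Its brightest probe there had intensities of 11.8 and 12.2. No direction was therefore measured for TET1 or TET3.

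Of the alternative catalytic subunits of PRC2, EZH2 was at least 2-fold lower and EZH1 was not. EZH2 had 1 probe, A_33_P3252196 (chr7:148504505-148504564, hg19, minus strand), which fell from an intensity of 2235 to 771 and from a log2 level of 3.21 to 1.71. The difference was -1.50 ± 0.20 (2.82-fold lower), and 3.79% of the genes had a lower one. EZH1, its paralogue, also had 1 probe, A_23_P428219 (chr17:40852674-40852733, minus strand), with intensities of 279 and 403. The log2 levels were 0.20 and 0.77, a difference of 0.57 ± 0.21 (1.48-fold higher). EZH1 stayed short of 2-fold, and 19.0% of the genes had a higher difference.

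A contrast between the differences of 2 genes is the same under any scaling that shifts an array as a whole. The EZH1 difference exceeded that of EZH2 by 2.06 ± 0.29, which is 4.18-fold. The TET2 difference exceeded that of DNMT1 by 2.49 ± 0.29, that of UHRF1 by 3.02 ± 0.29 and that of HELLS by 3.42 ± 0.29. Each of these gaps was several times its measurement error, which again leaves out the variation between cultures.

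**Figure D3:**
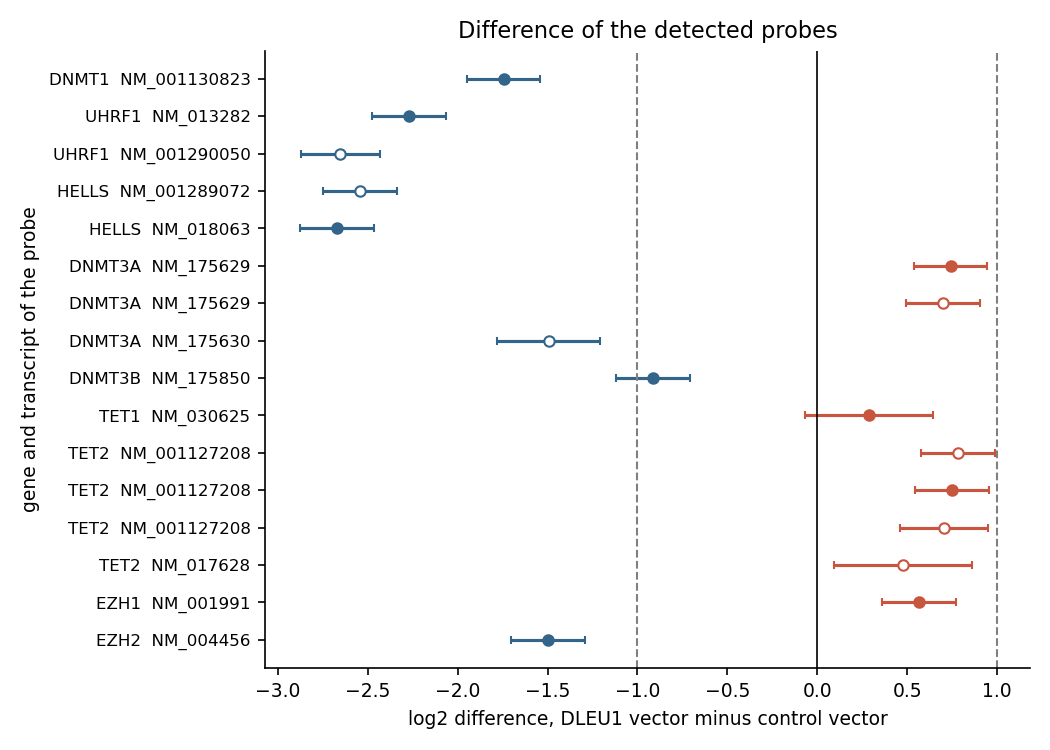
Log2 difference (x axis, DLEU1 vector minus control vector) of the 16 probes detected on both arrays, listed by gene and transcript (y axis). Bars are the error of the extraction software's model, filled points give the value of the gene and dashed lines mark 2-fold. The probes of HELLS and UHRF1 lie left of -2, those of TET2 between 0.48 and 0.78, and those of DNMT3A on both sides of 0.

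The sign of 7 of the 9 members was the same under every alternative run. Over the alternatives run, HELLS ranged from -3.13 to -2.36, UHRF1 from -2.73 to -2.11, DNMT1 from -2.21 to -1.40, EZH2 from -1.96 to -1.29 and DNMT3B from -1.38 to -0.80. On the other side TET2 ranged from 0.29 to 0.98 and EZH1 from 0.10 to 0.69. Only TET1 and DNMT3A changed sign. TET1 did so, to -0.18, when spike-in RNA was set equal on both arrays, which moved all genes by a median of -0.46 and raised the share of genes at least 2-fold lower to 24.1%.

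**Figure D4:**
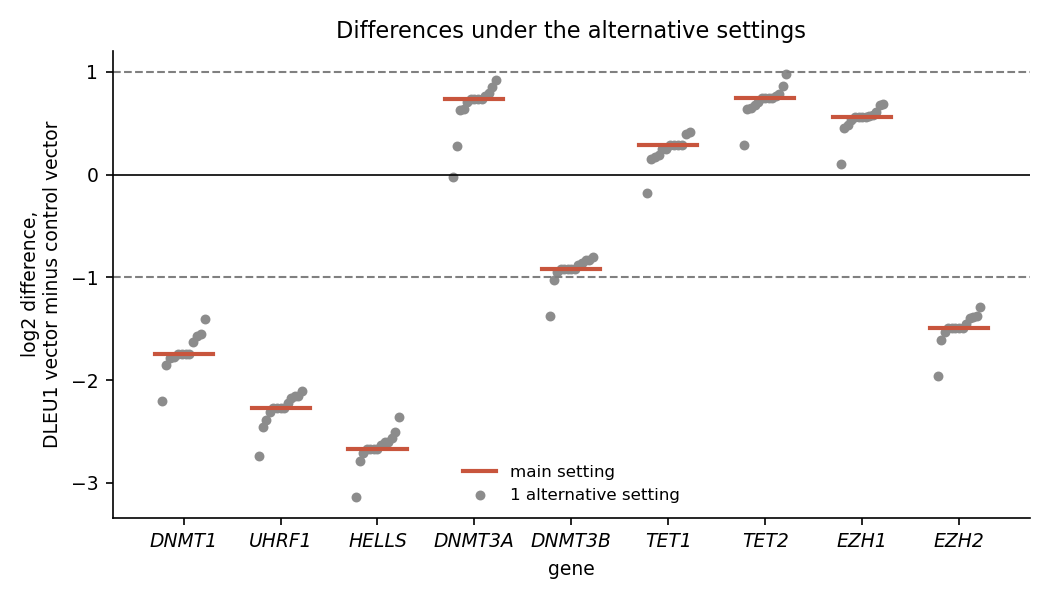
Log2 difference (y axis, DLEU1 vector minus control vector) of each of the 9 detected genes (x axis) in the main setting (red line) and under each alternative (grey points). HELLS, UHRF1, DNMT1 and EZH2 lie below the lower dashed 2-fold line in every setting run that gives them a value, and TET1 and DNMT3A are the only genes with points on both sides of 0.

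To see what the members share outside their level, their promoters were read from RefSeq (GRCh38.p14), in windows from 250 bases before to 50 bases after each annotated start. All 10 genes matched, with 22 windows. The windows were searched on both strands for the E2F site, the sequence bound by the E2F factors that switch on genes for S phase, in its forms TTTCCCGC, TTTCGCGC, TTTGCCGC and TTTGGCGC. Of the 27305 genes with a window, 3.99% held such a match in at least 1 window. All 4 members that were at least 2-fold lower held at least 1, and of the other 6 members 1 did (EZH1). Among the proliferation genes compared below, 8 of the 20 with a window held a match, or 40%, beside 5 of the 10 members. By window, 6 of 22 matched in the members (27.3%), 9 of 25 in the proliferation genes (36%) and 3.31% over all genes. UHRF1 matched in 2 of its 3 windows and EZH2 in 1 of its 2. The matches, in capitals within 30 bases on the gene's strand, are shown because all 4 members at least 2-fold lower hold at least 1. The split of the members was seen before the search and carries no test.
HELLS, chr10:94545701-94545730, plus strand: aaccgcaagctGCGCCAAAtctcgcgcagc
HELLS, chr10:94545769-94545798, plus strand: gatgacaggatTTTCCCGCgaaggagaagc
UHRF1, chr19:4909476-4909505, plus strand: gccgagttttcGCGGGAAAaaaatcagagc
UHRF1, chr19:4909973-4910002, plus strand: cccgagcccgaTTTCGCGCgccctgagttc
DNMT1, chr19:10194937-10194966, minus strand: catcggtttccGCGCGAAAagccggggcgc
EZH2, chr7:148884272-148884301, minus strand: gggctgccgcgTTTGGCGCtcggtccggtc
EZH1, chr17:42745137-42745166, minus strand: gcggggttttgGCGGCAAAtgacagtagtg
In DNMT1 the match began 2 bases before the start, in HELLS 8 and 76 bases before, in UHRF1 14 and 160 bases before 2 different starts, and in EZH1 115 bases before. In EZH2 it lay just inside the transcript. The 250 bases before the HELLS start (chr10:94545538-94545787, plus strand), the promoter of the gene with the largest difference, hold both of its matches.
HELLS promoter: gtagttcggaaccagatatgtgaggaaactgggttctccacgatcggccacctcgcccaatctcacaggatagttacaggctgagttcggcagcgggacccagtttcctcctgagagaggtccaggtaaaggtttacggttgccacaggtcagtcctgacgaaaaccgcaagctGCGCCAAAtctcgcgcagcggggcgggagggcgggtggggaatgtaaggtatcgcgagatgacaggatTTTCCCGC
DNMT3A, with 6 windows, held no match in any of them. The CHR element TTTGAA, searched on both strands and contained in none of the E2F forms, was found in 2 of the 10 members (DNMT3A and TET2) and in 18.2% of all genes. A match is a run of letters and not a measured site.

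Cycling was read alongside, since DNMT1, UHRF1, HELLS and EZH2 are known to be made mainly by dividing cells. Among 23 genes of S phase and mitosis the median difference was -2.76, and 22 of the 23 passed 2-fold downward, beside 9.78% of all genes. They ranged from E2F1 (-3.56), an activator of S phase genes, to the G1 cyclin CCNE1 (-0.87), the only 1 short of 2-fold. HELLS at -2.67 lay close to that median, while UHRF1 (-2.27), DNMT1 (-1.74) and EZH2 (-1.50) lay above it. DNMT1 and EZH2 lay above every proliferation gene except CCNE1. The other detected members ran from -0.91 (DNMT3B) to 0.75 (TET2). Of 9 differentiation markers 7 were detected on both arrays, all 7 above 0, with a median of 5.80. Of the 7, 6 were at least 2-fold higher, beside 9.18% of all genes. KRT1 and LOR were detected with the DLEU1 vector only. The part of cycling and differentiation in the differences of the regulators was not tested.

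Genes that act with the regulators were compared in 7 lists, in which 74 of 80 genes with a probe were detected on both arrays. Of these 74, 12 (16.2%) were at least 2-fold lower and 4 (5.41%) at least 2-fold higher, beside 9.78% and 9.18% of all genes. The median was -0.34, beside -0.07 over all genes. The count of 12 became 8 when the percentile was taken over detected probes alone, where 7.78% of all genes were at least 2-fold lower. This shift of 0.11 ended the calls of EED, RBBP7, MTRR and L3MBTL2. With spike-in scaling the count was 29, where 24.1% of all genes were at least 2-fold lower.

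Among partners of the methylation machinery all 9 detected had differences below 0 (median -0.82), beside 54.2% of all genes. Of these, 4 were at least 2-fold lower (44.4%), beside 9.78% of all genes. CDCA7, which recruits HELLS to chromatin, went from a log2 level of 4.93 to 2.72, a difference of -2.21 ± 0.20. The replication clamp PCNA, on which DNMT1 rides, differed by -1.95, the DNA ligase LIG1, a ligand of UHRF1, by -1.80, and the CDCA7 paralogue CDCA7L by -1.48. The smallest difference was that of DMAP1 (-0.27). DNMT3L and ZFP57 were not well above background on either array.

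Of the PRC2 partners 11 were detected, with a median of -0.50 that became -0.29 without the dim strip. Of the 11, 4 were at least 2-fold lower (36.4%) and 1 at least 2-fold higher (9.09%), beside 9.78% and 9.18% of all genes. PHF19, a subunit that guides PRC2 to chromatin and binds methylated H3K36, fell from 4.47 to 1.59 and had the lowest difference of all 7 lists, -2.88 ± 0.20. C17orf96, a PRC2 subunit that binds elongin, differed by -1.20, the core subunit EED by -1.09 and the histone chaperone RBBP7 by -1.08. The core subunit SUZ12 differed by -0.72, short of 2-fold. The probes of SUZ12 and RBBP7 lie in the dim strip. JARID2, which tethers PRC2 to its sites, rose from a log2 level of 3.50 to 4.86, a difference of 1.36 ± 0.20, and was the only PRC2 gene at least 2-fold higher.

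PRC1, the complex that ubiquitinates histones at Polycomb sites, was read through 20 genes. Of the 19 detected on both arrays 2 were at least 2-fold lower, PCGF6 (-1.33) and L3MBTL2 (-1.01), and 0 at least 2-fold higher. The share lower, 10.5%, was near the 9.78% of all genes, while 9.18% of all genes were at least 2-fold higher. The median of -0.30 was not stable, at -0.08 without the dim strip or with local medians taken off and -0.76 with spike-in scaling. The catalytic subunit RNF2 was highest at 0.46, although its other probe gave -0.82. PCGF2 was detected with the control vector only, at least 5.73-fold higher there, but its probe lies in the dim strip. Among 9 genes that oppose Polycomb, WHSC1, a methyltransferase for H3K36, was lowest at -2.20, although another of its probes gave -0.40. KDM6B, which removes methyl groups from H3K27, was higher by 1.11 ± 0.23.

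The genes called methyl-CpG readers here were listed by protein family, and binding to methylated CpG was not checked for each. None of the 9 detected on both arrays was at least 2-fold different (0 lower and 0 higher), beside 9.78% and 9.18% of all genes. They ran from MBD1 (-0.87) to ZBTB4 (0.70), and MBD5 was detected with the DLEU1 vector only, at least 2.81-fold higher. Around active demethylation 2 of 11 genes were at least 2-fold higher (18.2%) and 0 lower, beside 9.18% and 9.78% of all genes. These were NEIL1, a glycosylase of base excision repair (1.74 ± 0.20), and CXXC5, a CXXC zinc finger protein (1.25 ± 0.20). CXXC4, its paralogue, was detected with the DLEU1 vector only, at least 5.76-fold higher, and APEX1 had the lowest difference of this list (-0.69). Of the 6 genes of the methyl donor cycle, 5 had differences from -1.04 to -0.11 and the sixth was at 0. MAT1A (-0.11 ± 0.21) and MAT2B differed by less than their errors. The 6 ran from MTRR (-1.04, with -0.42 at another probe) to MAT2B (-0.00058, at a level of 2.72 on both arrays, with 0.13 at its other probe). MTRR, the reductase that keeps methionine synthase active, was the only 1 at least 2-fold lower (16.7% of the 6, beside 9.78% of all genes).

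**Figure D5:**
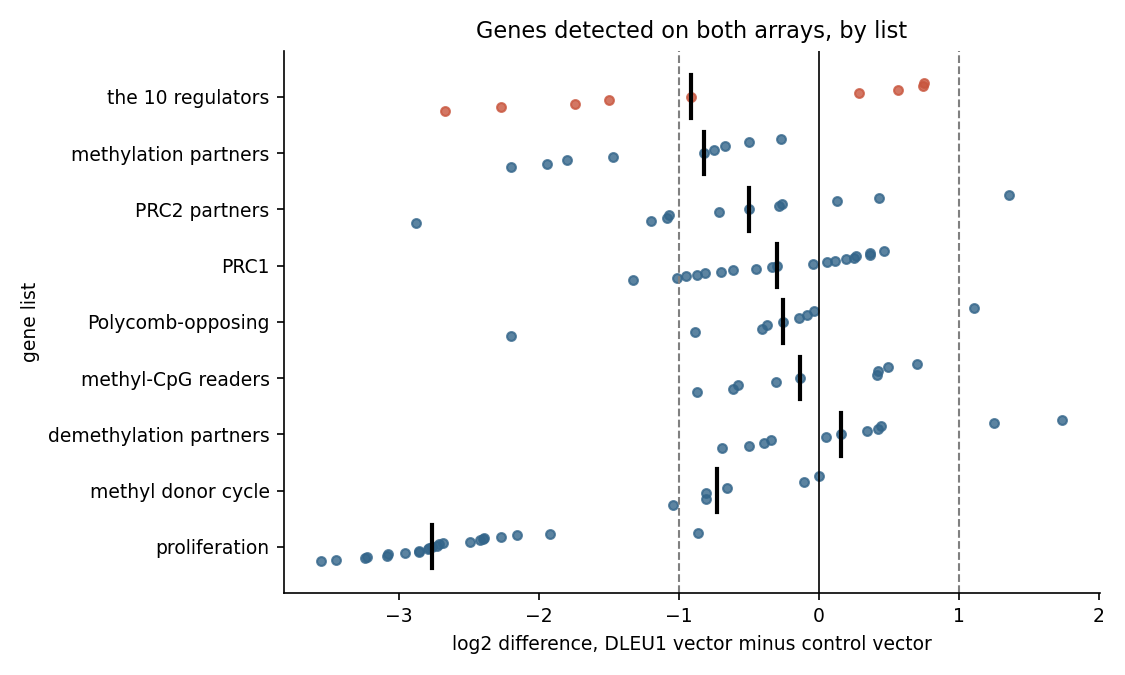
Log2 difference (x axis, DLEU1 vector minus control vector) of each gene detected on both arrays, by gene list (y axis), with a black bar at the list median and dashed lines at 2-fold. The regulators are red. Their median is -0.91, and the medians of the other lists drawn run from -2.76 for proliferation to 0.16 for the demethylation partners. The differentiation, germline gene, PRC2 target and cell type marker lists are not drawn.

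Finally, genes known to be held silent by these systems were read. Of 16 germline genes whose promoters are known to be methylated in somatic cells, 11 were detected on neither array and 4 on both. Over the whole array 20246 of 43317 gene names were detected on both arrays. Lack of detection was thus common and is no sign of silencing by itself. STK31 was higher, from a log2 level of -2.22 to 1.22 (3.45 ± 0.22), TEX101 was lower (-1.12 ± 0.21), and the other 2 differed by less than their errors. MAGEB2 was detected with the control vector only, at least 1.65-fold higher there. Of 18 developmental regulators known as PRC2 targets in embryonic stem cells, 13 were detected on neither array and 5 on both. PAX9 was higher by 1.39 ± 0.20, from a log2 level of 0.60 to 1.99, and FOXA2 lower by a difference of -1.13 ± 0.23. The other 3 were short of 2-fold. Among them NKX2-5 had levels of 6.82 (control vector) and 7.10 (DLEU1 vector), and GATA6 of 2.43 and 2.10. Both were thus well above background on each array. In each of these lists 1 gene passed 2-fold upward and 1 downward, beside 9.18% and 9.78% of all genes.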

How the data were processed

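The members and gene lists were chosen with earlier results of these data known. Per the file headers the deposited intensity of each spot came from Agilent Feature Extraction 10.7.3.1, in which the authors' scans were corrected for local background, detrended within the array and given a surrogate value where dim, with probes placed on hg19. The authors analysed them in GeneSpring. The flags marking spots as detected, saturated or outlying are other columns of the deposited files. No values were normalized between arrays.

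Control and outlier spots were left out, spots of a probe averaged as log2, and the 75th percentile over 58201 probes subtracted (7.92 for the control vector, 7.88 for the DLEU1 vector). Of the probes, 47.6% and 48.1% were detected, 26279 on both arrays, and no spot was saturated (0 on each). A gene detected on 1 array has a lower bound for its fold, set by the dimmest detected probe of the other array or by the gene's own signal there if brighter. The number of arrays limits the precision. All members were named. In the 7 partner lists and the silenced gene lists, the genes at least 2-fold different and the extremes were named, with EED and SUZ12. Of the proliferation list only the extremes were named, and of the differentiation list only the genes detected on 1 array. Genes detected on 1 array only, and the markers, were named after their values were seen. Calls were checked on simulated data, with changes planted well past 2-fold and spot noise alone. That check covers the arithmetic, and not the variation between cultures or between probes. Alternatives were other scalings, normexp (offset 50, limma 3.58.1), the series values, filters, probe means, local medians, thresholds and leaving out the dim strip. Python 3.11.15 was used.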

Additional observations from a re-analysis of the deposited data

How the results depend on the processing

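No paired analysis was possible because each group had 1 array and the labels carry no replicate numbers. For the same reason no array could be left out. Leaving out the dim strip was chosen after seeing the data. The 4 members at least 2-fold lower became 3 without the strip, which holds the only DNMT1 probe, and 3 at a threshold of 3-fold. They became 5 with median or spike-in scaling and at 1.5-fold, where DNMT3B joined. Of all genes, 9.78% were at least 2-fold lower in the main setting and 9.47% without the strip. That share was 12.1% with median scaling and 24.1% with spike-in scaling. At 1.5-fold and 3-fold, 22.0% and 3.31% of all genes were lower. The number of members at least 2-fold higher was 2 at 1.5-fold, beside 18.4% of all genes, and 0 in every other setting run. The members' median of -0.91 was -1.03 with median scaling, -0.80 where the percentile was taken over detected probes alone, -0.83 with loess, -1.38 with spike-in scaling, -0.83 with normexp, -0.42 with no filter on dim probes, -1.21 with a signal of at least 100 and -0.31 without the strip, the last 3 because other genes were counted. The 12 partner genes at least 2-fold lower and 4 higher became 29 and 1 under spike-in scaling (24.1% and 4.56% of all genes). They were 8 and 4 where the percentile used detected probes alone (7.78% and 10.9%). After quantile normalization (8.64% and 9.62%) or loess (8.16% and 10.1%) they were 9 and 4. At 1.5-fold 28 were lower (22.0% of all genes), and at 3-fold 5 lower and 1 higher (3.31% and 3.82%), by construction. TET1 reversed to -0.18 with spike-in scaling, and DNMT3A to -0.018 with the mean of its probes, because the probe of transcript NM_175630 counts. List medians near 0 also reversed. PRC2 targets (0.08) gave -0.031 with median scaling, -0.00054 with quantile normalization and -0.38 with spike-in scaling. Demethylation partners (0.16) gave -0.30 with spike-in scaling. Germline genes (-0.02) gave 0.094 with the percentile over detected probes, 0.030 with normexp, 0.035 with no filter and 0.29 with local medians taken off. Methyl-CpG readers (-0.14) gave 0.14 with no filter and 0.061 with local medians, and endothelial markers (1.56) -0.57 with no filter. Unless stated, the cause was not tested. Signal over background limits TET1 and TET3.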
